A study of Bos taurus with 30 samples.

Results

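Oocyte-only regions were stretches of open chromatin found in germinal vesicle-stage (GV) oocytes of cattle and in no later stage of the preimplantation embryo. To choose them, ATAC-seq peaks of the 3 replicates of a stage were merged wherever they shared at least 1 bp, and a merged stretch was kept as a region of that stage if peaks of 2 or more replicates fell in it. GV oocytes had 33347 such regions. Of these, 7339 (22.0%) overlapped no region of 2-cell embryos, 4-cell embryos, 8-cell embryos, morula or inner cell masses (ICM), and they are called oocyte-only below. The other 26008 GV oocyte regions overlapped a region of at least one of these stages and are called reopened.

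A GV oocyte is the fully grown egg cell, arrested in the first meiotic division with an intact nucleus, in which transcription winds down before maturation. After fertilization the embryo divides on maternal RNA and protein, and its own genome is switched on in earnest at major embryonic genome activation, which in cattle falls around the 8-cell stage. ATAC-seq reads out where a transposase can cut, so that a peak marks DNA that is not tightly covered by nucleosomes, often a promoter, an enhancer or a binding site of an insulator protein. Regions with peaks in the oocyte and no region in the embryo are therefore candidates for places where the chromatin of the female germ cell differs from that of the embryo it gives rise to. A missing region does not by itself show a closed site.

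The series held 30 libraries, 3 from each of 10 groups. Oocyte and embryo libraries were made from pools of cells from separate oocyte collections, and ESC libraries from cultured cells. The control groups were GV oocytes aspirated from ovarian follicles of abattoir cattle, embryos produced in vitro with frozen semen of a Holstein bull and taken as 2-cell, 4-cell (2 days after insemination), 8-cell (3 days) and morula (5 days) embryos, ICM isolated from blastocysts (7 days), and embryonic stem cells (ESC) of lines derived from ICM and grown on mouse feeder cells. In the other 3 groups, 2-, 4- and 8-cell embryos of the same in vitro system had been kept from the day after insemination in medium with 50 µg/ml α-amanitin, a toxin that blocks RNA polymerase II, and are called transcription-blocked embryos (TBE). Embryos of a collection had been divided, so that treated and untreated embryos of these stages shared collections and were cultured at the same time. Which libraries share a collection is not given, so the main tests did not pair them. Neither the labels nor the methods say how cumulus cells were taken off the GV oocytes, and the labelled cell types could not be checked against marker genes, because gene positions on the build of the files were not used here. ESC and TBE played no part in choosing the oocyte-only regions.

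The lists differed widely in depth. They held from 925 peaks (2-cell TBE replicate 1) to 247513 (8-cell TBE replicate 2). The files give no read numbers, but the background level that the peak caller used, which is proportional to the number of tags, could be solved in 28 of 30 libraries. It was 0.247 to 0.507 in GV oocytes, 0.806 to 1.315 in 8-cell controls, and 1.244, 3.823 and 0.347 in 8-cell TBE replicates 1, 2 and 3. 8-cell TBE replicate 2 stood apart from all other libraries in background level and in number of peaks, so counts of 8-cell TBE regions and the comparisons with 8-cell controls are also given without it. No 2 lists held the same peaks.

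The values that chose the members are given first, as a description. Oocyte-only regions were narrower and less enriched in GV oocytes than reopened ones, with a median width of 516 bp (200 to 2955 bp) against 750 bp. The fold enrichment of a peak is its pileup of tags plus 1, divided by the background around it plus 1. The added 1 weighs more at a low background, so values from libraries of unlike depth are not on a common scale. For each library, the fold enrichment of its highest peak in a region was taken. Among oocyte-only regions with a peak in the library, its median was 3.83, 3.87 and 3.69 in GV oocyte replicates 1, 2 and 3, while reopened regions had 4.60, 4.42 and 4.18. Averaged over the GV oocyte libraries with a peak, fold enrichment had a median of 3.81 in oocyte-only regions, with 5% of them below 3.19 and 5% above 5.03. Regions that came back in the embryo had higher values the earlier they did so. The median was 3.89 in the 4064 regions first seen again in morula or ICM, 4.18 in the 10420 that came back with the 8-cell embryo and 4.85 in the 11524 that were back by the 4-cell stage. When all GV oocyte regions were ranked by fold enrichment and cut into 10 bins, the oocyte-only share fell from 42.5% in the lowest bin to 1.71% in the highest, where only 57 of 3335 regions were oocyte-only.

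Most oocyte-only regions rested on the fewest replicates that the rule allowed. Of the 7339, 5226 had peaks in 2 GV oocyte replicates and 2113 (28.8%) in all 3, against 67.5% of reopened regions in all 3. Just outside the rule lay 25110 stretches with a peak in 1 GV oocyte replicate and no embryo region, of lower median fold enrichment (3.48 against 3.74 for the members in 2 replicates) and lower median width (254 bp against 474 bp). On the embryo side, 4031 members (54.9%) had no peak in any of the 15 embryo control libraries and 2094 had a peak in exactly 1. An embryo region lay within 1000 bp of 1131 members (15.4%) and within 100 bp of 106. Among reopened regions, 3213 were matched by a region of 1 embryo stage only, with a median fold enrichment of 3.89, and 99 shared less than 10% of their length with embryo regions.

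A narrower core was seen in GV oocytes and nowhere else. In none of the 27 libraries of other groups did 1261 members have a peak, which is 17.2% of the oocyte-only regions. The same count over all GV oocyte regions gives 3.78%, but every region without a peak in the embryo libraries is oocyte-only by the rule, so that nothing is read from this difference. Peaks in all 3 GV oocyte libraries and in no other library were found at 279 regions. The 10 of these with the highest mean fold enrichment are the clearest cases of peaks found in the oocyte alone.

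The strongest of them lay at chr24:52226171-52226573 (build ARS-UCD1.2), with fold enrichments of 7.13, 7.35 and 7.10 in GV oocyte replicates 1, 2 and 3. It was the highest in every library among the 10 and had the closest replicates, with an SD of 0.136. Next came chr7:83148727-83149163 with 5.76, 5.78 and 6.21, and chr21:8011620-8011944 with 6.49, 5.94 and 4.87. Their mean fold enrichments were 5.92 and 5.77. The others had means between 5.40 and 5.63. They were chr3:105264284-105264608, chr3:108746429-108747661, chr2:123839327-123839724, chr7:55695347-55695828, chr7:16362903-16363432, chr19:39080109-39080544 and chr20:14433545-14433810. The replicates lay furthest apart at chr3:108746429-108747661, the widest of the 10 at 1233 bp, with 5.40, 7.01 and 4.26. Chromosome 7, which had the smallest oocyte-only share of all chromosomes (below), carried 3 of the 10.

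**Figure D1:**
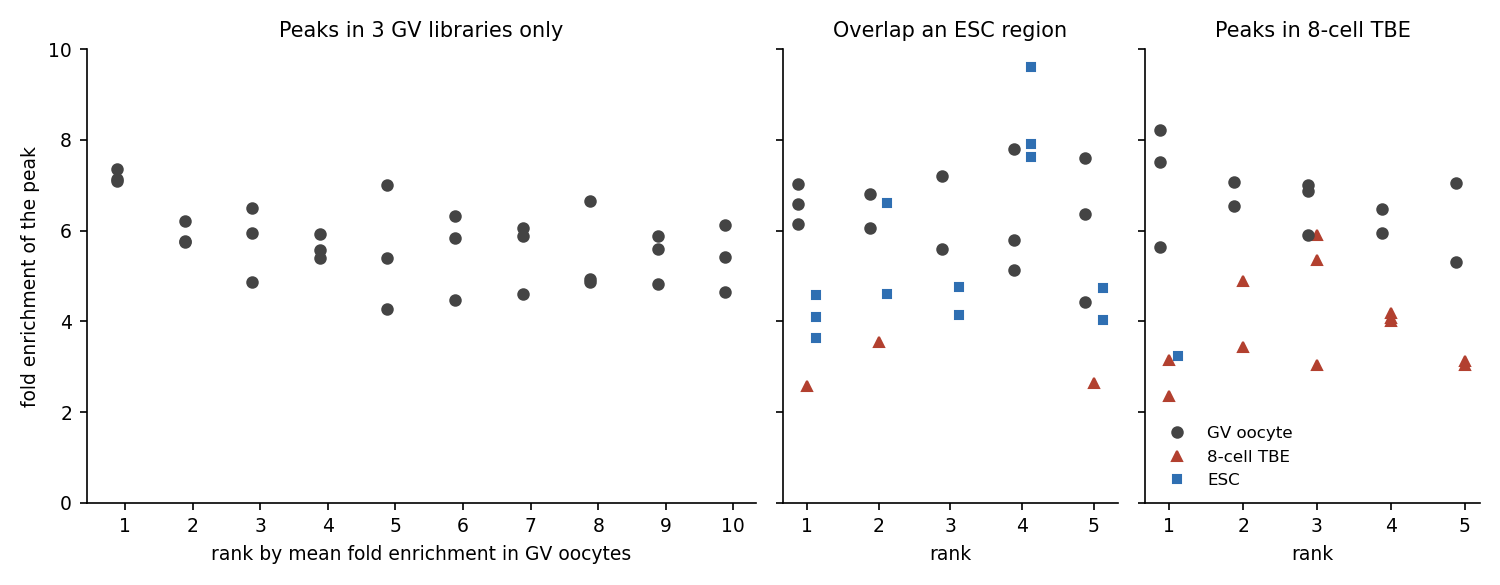
Fold enrichment of the peak in each library (y axis) at oocyte-only regions ranked by their mean in GV oocytes (x axis), with 1 symbol per library that had a peak (black circles, GV oocyte; red triangles, 8-cell TBE; blue squares, ESC). The left panel shows the 10 strongest regions with peaks in all 3 GV oocyte libraries and no other, the middle panel the 5 strongest that overlapped an ESC region and the right panel the 5 strongest with peaks in at least 2 8-cell TBE libraries; at the fourth ESC region all 3 ESC peaks (7.62 to 9.61) lie above 2 of the 3 GV oocyte peaks.

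How the regions behaved in a GV oocyte library that had not been used to choose them was tested by defining them again from 2 replicates and looking in the third. Oocyte-only regions recurred less often than reopened ones. With replicate 1, 2 and 3 held out in turn, 49.8% of 4272, 59.2% of 3553 and 56.3% of 3742 oocyte-only regions had a peak in the held-out library. Reopened regions had one in 86.9%, 86.3% and 85.1%. The mean was 55.1% ± 4.81 (SD, n = 3 libraries) against 86.1% ± 0.904, a difference of -31.0 percentage points ± 5.34 that had the same sign in 3 of 3 libraries (exact two-sided sign-flip test, p = 0.25, the smallest that 3 libraries allow). Within bins of like fold enrichment the difference was -22.6 percentage points. In each held-out library, 40% or more of the oocyte-only regions had no peak.

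Transcription-blocked and stem cell libraries, which the rule had not used, were then searched for peaks at the same regions. Oocyte-only regions were covered less often than reopened regions in each of the 12 libraries. A region counted as covered where a peak of the library shared at least 1 bp with it. Over the 12 libraries 13.8% ± 18.7 (SD) of oocyte-only and 46.5% ± 32.0 of reopened regions were covered, a mean difference of -32.6 percentage points ± 19.9 (exact two-sided sign-flip test, p = 0.000488, the smallest that 12 libraries allow). In bins of like fold enrichment the mean difference was -25.0 percentage points, and with only the 925 top peaks of every list it was -2.93, with the same p from the exact test in both. The test has limits. The choice of regions favoured this sign in TBE libraries, since control embryos of the same stages had been used to tell oocyte-only from reopened regions. It favoured the sign in ESC libraries as well, since ICM, from which the ESC lines were derived, had been used in the same way. The 12 libraries are also replicates of a few groups and not independent of each other. The small p is therefore not read as evidence about oocyte-only regions. The wide SD came from the libraries. In 2-cell TBE replicates 1, 2 and 3, 0.0954%, 1.44% and 1.80% of oocyte-only regions were covered, and in 4-cell TBE 7.28%, 0.463% and 0.395%. ESC covered 5.25%, 23.7% and 17.8%, and 8-cell TBE 33.1%, 62.7% and 12.1%.

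**Figure D2:**
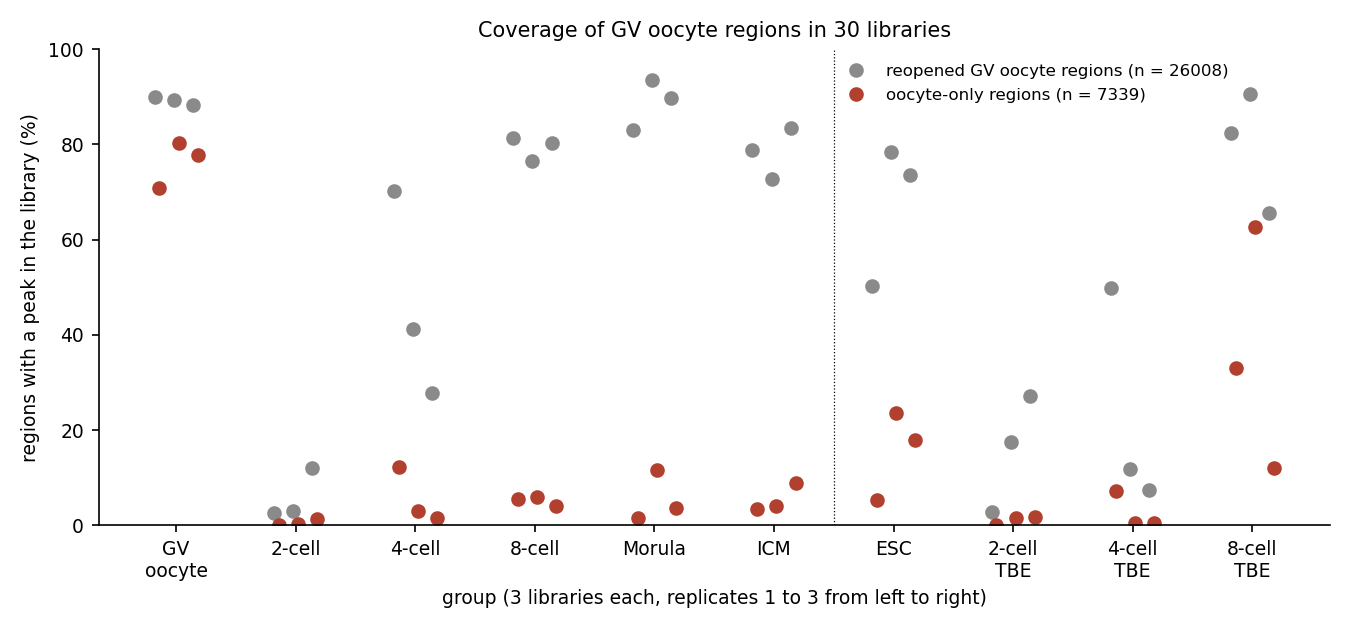
Percent of oocyte-only (red) and reopened (grey) GV oocyte regions with a peak in each of 30 libraries, 3 per group, each point a library. Libraries left of the dotted line were used to choose the regions; to its right, red points lie below grey ones in all 12 libraries and reach 62.7% in 8-cell TBE replicate 2.

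Blocked 8-cell embryos held a part of the oocyte-only sites, a smaller share than of all GV oocyte regions. A region of 8-cell TBE overlapped 2521 of 7339 members (34.4%, exact Clopper-Pearson 95% interval 33.3% to 35.4%), where 72.4% of all GV oocyte regions were overlapped. At earlier stages hardly any did. Regions of 4-cell TBE overlapped 21 members (0.286%, against 10.7% of all GV oocyte regions) and regions of 2-cell TBE overlapped 9 (0.123%, against 9.10%). These intervals and shares cover counting error only, and neighbouring regions of a genome are not independent. The count at the 8-cell stage rested in large part on replicate 2. From replicates 1 and 3 alone, 8-cell TBE regions overlapped 694 members (9.46%) and 52.5% of all GV oocyte regions.

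To ask whether blocking transcription changed how many oocyte-only sites were open, each TBE library was set against a control library of the same stage that had been left out when the regions were chosen. For each control replicate, oocyte-only regions were defined again with that stage's regions taken from the other 2 replicates, and the coverage in the left-out library was read. TBE values are means over the 3 sets of regions so made, which held 7563 to 7637 members at the 8-cell stage.

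More oocyte-only regions were covered in every 8-cell TBE library than in any 8-cell control. Held-out 8-cell controls covered 9.0%, 8.53% and 7.15%, and 8-cell TBE libraries 33.6%, 63.3% and 12.4%. The groups did not overlap, though the choice of regions had used control and not TBE lists. The means were 8.23% ± 0.962 and 36.4% ± 25.6 (SD, n = 3 each), a difference of 28.2 percentage points or 4.43-fold (exact two-sided permutation test, p = 0.1, the smallest that 3 libraries against 3 allow). Without TBE replicate 2 the difference was 14.8 percentage points (exact permutation test, p = 0.1). With only peaks of fold enrichment of at least 3 in all lists, the difference was 7.74 percentage points (exact permutation test, p = 0.1). The libraries also differed in depth and enrichment, whose separate parts in the result were not tested. TBE replicate 3 had a background level of 0.347 and 50090 peaks, and the 8-cell controls 0.806 to 1.315 and at least 125253 peaks. The median fold enrichment over all peaks was 3.37, 2.49 and 3.79 in 8-cell TBE and 3.84, 3.81 and 4.05 in the controls.

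Holding out 1 control library leaves a bias, because the regions were still chosen for lacking a region in the other 2 control replicates and no such demand was made of TBE. The comparison was therefore repeated with regions chosen in other ways, after the data had been seen. With the 8-cell lists left out of the choice, so that 7980 GV oocyte regions had no region in 2-cell, 4-cell, morula or ICM, 8-cell controls covered 11.1%, 10.4% and 9.21% of them and TBE 34.4%, 63.9% and 12.9%. The groups again did not overlap, with a difference of 26.8 percentage points (exact permutation test, p = 0.1), or 13.4 without TBE replicate 2. With the same demand made of both groups, no region in the other 2 control nor in the other 2 TBE replicates, controls covered 7.27%, 8.0% and 6.18% and TBE 27.4%, 59.7% and 5.04%. Here the groups overlapped, since TBE replicate 3 lay below all controls (difference 23.5 percentage points, exact permutation test, p = 0.4; 9.06 without TBE replicate 2, p = 0.4 in the exact test). Both choices still demanded no region in untreated embryos of the other stages, and made no such demand of TBE of other stages. Low values in 8-cell controls could therefore still be favoured by the choice, which these comparisons cannot tell from an effect of the block.

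Lists of equal length brought the TBE libraries closer together and made the difference smaller. Keeping only the 50090 peaks of highest −log10 p in each library, the number in the shortest list of the stage, held-out 8-cell controls covered 0.406%, 0.357% and 0.301% of oocyte-only regions, and TBE 15%, 13.0% and 12.4%, a difference of 13.1 percentage points (exact permutation test, p = 0.1). Because the choice had excluded regions of the other control replicates, the low control values are not read on their own. The 50090 peaks were also the whole list of TBE replicate 3 but only the strongest part of control lists of 125253 to 156569 peaks. A site without a top peak in a control is therefore not shown to be closed there, with any choice of regions. For the 7980 regions chosen without 8-cell lists, the same top peaks covered 1.03%, 1.03% and 0.977% in controls and 15.6%, 13.8% and 12.9% in TBE (exact permutation test, p = 0.1). Making the same demand of both groups gave 0.329%, 0.34% and 0.184% against 9.32%, 8.71% and 5.04% (exact permutation test, p = 0.1). GV oocyte regions of morula or ICM, chosen without 8-cell lists, also had more top peaks in TBE, with 39.2%, 35.2% and 36.3% in controls and 54.2%, 42.6% and 47.8% in TBE (exact permutation test, p = 0.1). With all peaks these regions showed no such gain. Controls covered 71.0%, 64.8% and 71.0% of them and TBE 71.1%, 84.2% and 47.8%, a difference of -1.23 percentage points, or -9.48 without TBE replicate 2.

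At the 4-cell and 2-cell stages the groups overlapped. Held-out 4-cell controls covered 14.5%, 4.80% and 2.69% of oocyte-only regions, and 4-cell TBE 7.93%, 0.579% and 0.512%, a difference of -4.32 percentage points (exact permutation test, p = 0.5). The highest value of each group belonged to its replicate 1, which also had the most peaks of its group. Held-out 2-cell controls covered 0.0954%, 0.218% and 1.29%, and 2-cell TBE 0.104%, 1.44% and 1.82%, a difference of 0.586 percentage points (exact permutation test, p = 0.3). Lists of equal length turned the sign at both stages. The effect at the 8-cell stage exceeded that at the 4-cell stage by 32.5 percentage points (permutation of control and TBE within each stage, 400 relabellings, p = 0.04; adjusted over 3 pairs of stages, p = 0.12; 19.1 percentage points without 8-cell TBE replicate 2) and that at the 2-cell stage by 27.6 percentage points (same permutation test, p = 0.09; adjusted p = 0.135).

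**Figure D3:**
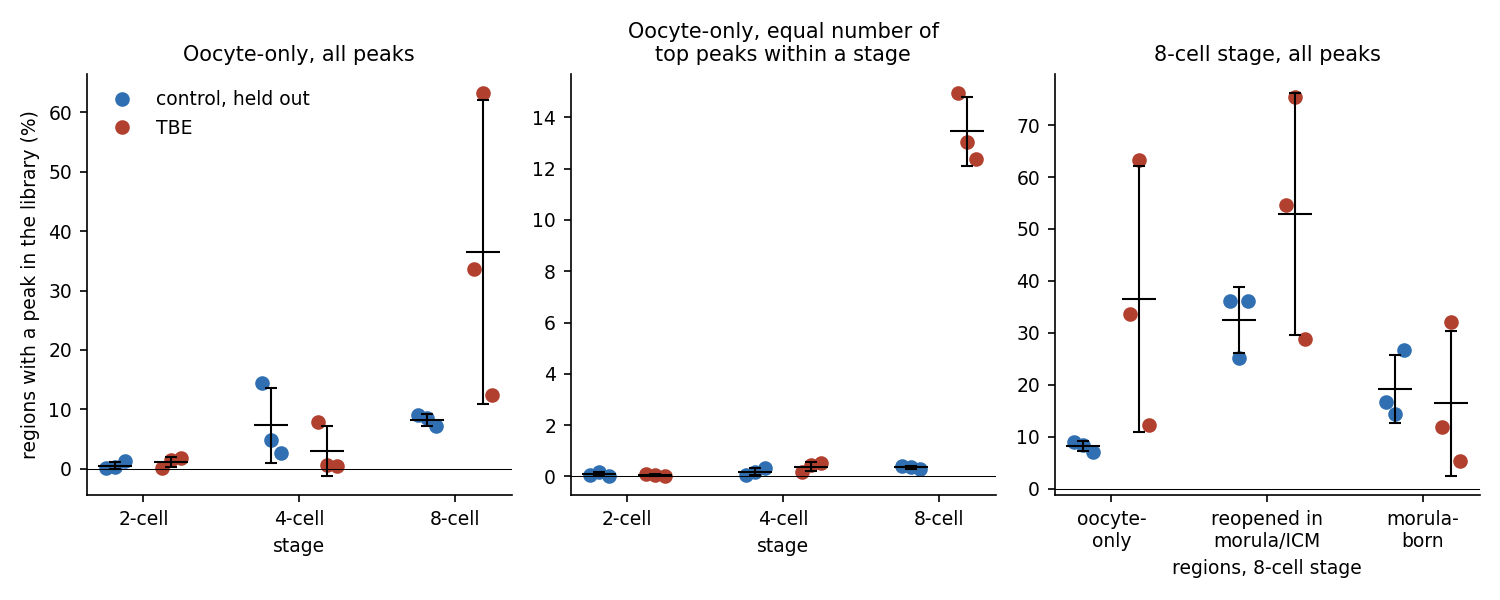
Percent of regions with a peak in held-out control (blue) and TBE (red) libraries, each point a library, with the mean (long bar) and SD (capped line) of 3. The left panel shows oocyte-only regions at 3 stages, the middle panel the same with equal numbers of top peaks within a stage, where 8-cell TBE lie at 12.4% to 15% and controls at or below 0.406%, and the right panel 3 sets of regions at the 8-cell stage.

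Whether the higher coverage in blocked 8-cell embryos held for other sites was asked with regions first seen after the 8-cell stage and not seen in oocytes. These morula-born regions were in morula or ICM and in none of GV oocytes, 2-, 4- and 8-cell embryos, and numbered 95665 to 102997 depending on the replicate held out. They were covered at 16.8%, 14.4% and 26.7% in held-out 8-cell controls and at 11.9%, 32.2% and 5.28% in TBE, groups that overlapped (exact permutation test, p = 0.8). In the same library, oocyte-only minus morula-born coverage was -7.75, -5.85 and -19.6 percentage points in the controls and 21.7, 31.1 and 7.10 in TBE. All controls favoured morula-born sites and all TBE libraries favoured oocyte-only sites, a difference of 31.0 percentage points (exact permutation test, p = 0.1, the smallest possible), or 25.5 without TBE replicate 2. This contrast was chosen after the data had been seen. The choice of regions favours the sign in the controls. Morula-born regions were chosen for opening in control embryos at later stages, and oocyte-only regions for not doing so. The contrast therefore cannot tell an effect of the block from the choice of regions.

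GV oocyte regions that stayed closed until morula or ICM were a closer comparison, because they too had been open in the oocyte. Held-out 8-cell controls covered 36.2%, 25.2% and 36.1% of them and TBE 54.6%, 75.3% and 28.8%, so that the groups overlapped (exact permutation test, p = 0.3). The change in oocyte-only regions less the change in these regions was 7.80 percentage points, and the values of the groups overlapped (exact permutation test, p = 0.2). As a ratio the picture differed. Oocyte-only regions were covered 0.248, 0.338 and 0.198 times as often as these regions in the controls and 0.616, 0.841 and 0.429 times as often in TBE, with no overlap (exact permutation test, p = 0.1). A TBE effect particular to oocyte-only regions was thus not shown against other oocyte regions on the scale of percentage points.

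Members open in 8-cell TBE were spread over the whole range of oocyte strength. In the 10 bins of fold enrichment, 30.6% to 40.4% of oocyte-only regions overlapped an 8-cell TBE region, with no steady rise or fall, while for reopened regions the share rose from 69.8% in the lowest bin to 95.7% in the highest. From TBE replicates 1 and 3 alone the bins gave 8.01% to 12.3% of oocyte-only regions. Members in 8-cell TBE were somewhat wider than the rest, with a median of 596 bp against 472 bp, and had nearly the same median fold enrichment in GV oocytes, 3.79 against 3.83. Peaks in all 3 8-cell TBE libraries were found at 628 members (8.56%), against 63.5% of reopened regions. Exactly 2 had a peak at 1721 members (23.5%, against 18.8%) and 1 at 2591 (35.3%, against 10.5%). None had a peak at 2399 members (32.7%, against 7.11%). Of the 887 members covered in TBE replicate 3, the shallowest, 94.7% were also covered in at least 1 of the other TBE libraries and 70.8% in both. At the peaks on oocyte-only regions the median fold enrichment was 3.15, 2.46 and 3.46 in TBE replicates 1, 2 and 3, below the median over all peaks of each library. Peaks in all 3 TBE and no 8-cell control library were found at 465 members (6.34%) and at 3.21% of all GV oocyte regions. The rule limits members to at most a few control peaks, so that the higher share is not a result about them.

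Regions picked for their TBE peaks show how strong these could be. The 5 members of highest GV oocyte fold enrichment with peaks in at least 2 8-cell TBE libraries, out of 2349 such members, included 2 on unplaced scaffolds, which are stretches of assembly not assigned to a chromosome. At chr14:12538242-12538584 fold enrichment was 7.00, 6.87 and 5.90 in GV oocytes and 5.92, 3.05 and 5.36 in 8-cell TBE replicates 1, 2 and 3, with 4-cell replicate 1 (4.89) the only other library with a peak. Of the 5, this member had the fold enrichments in blocked embryos nearest to those in oocytes, on a scale that depends on depth. At chr27:42821505-42821968, the strongest of the 5 in oocytes (8.23, 7.52 and 5.65), TBE replicates 2 and 3 had 2.35 and 3.16, replicate 1 had no peak, and 4 control libraries of other groups had a peak as well. At chr9:102908640-102908941 GV oocyte replicates 1 and 2 had 5.31 and 7.05, TBE replicates 1 and 2 had 3.04 and 3.14, and no other library had a peak. One of the scaffold regions had peaks in all 3 TBE libraries, of 4.19, 4.08 and 4.00, and a higher one of 4.67 in 2-cell control replicate 2. The other had peaks of 4.88 and 3.44 in TBE replicates 1 and 2, of 4.89 in 4-cell control replicate 1, and in 2 4-cell TBE libraries.

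ESC shared few of the oocyte-only sites. An ESC region overlapped 1035 members (14.1%, exact Clopper-Pearson 95% interval 13.3% to 14.9%), while 59.4% of all GV oocyte regions were overlapped. The share was higher the earlier the embryo reopened a site, from 40.4% of regions first seen again in morula or ICM to 67.7% of those seen again at the 8-cell stage and 87.3% of those seen again by the 4-cell stage. Overlap with 8-cell TBE in these classes was 51.3%, 78.9% and 98.2%. Oocyte-only regions were the lowest class for both. The choice favoured this order, since the classes had been defined by regions of ICM, the source of the ESC lines, and of untreated embryos. The low share in ESC is therefore given as a description. In the ESC libraries, 15.6% ± 9.41 (SD, n = 3) of oocyte-only and 67.5% ± 15.1 of reopened regions were covered, a difference of -51.9 percentage points ± 5.94 with the same sign in 3 of 3 libraries (exact sign-flip test, p = 0.25, the smallest possible). ESC replicate 1, which had the fewest peaks (39333) and the lowest background level of the 3 (0.175), covered 5.25% of members, against 23.7% and 17.8% in the deeper libraries. Peaks in all 3 ESC libraries were found at 321 members (4.37%). The share was not counted for other GV oocyte regions, so that nothing is read from it.

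**Figure D4:**
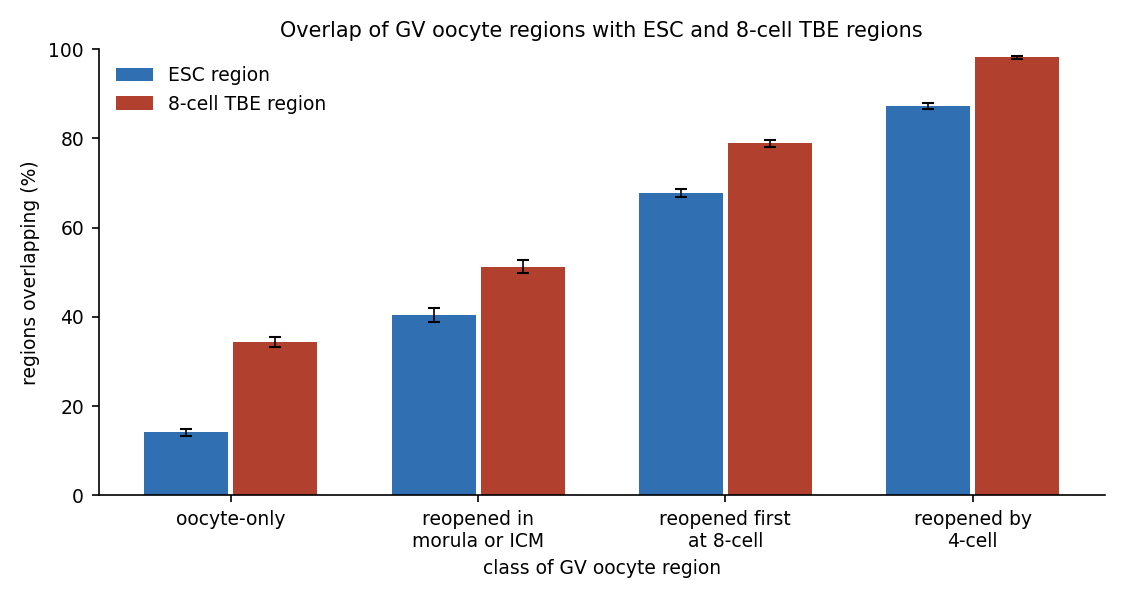
Percent of GV oocyte regions that overlapped an ESC region (blue) or an 8-cell TBE region (red), by class (x axis); bars start at 0 and error lines are exact 95% binomial intervals, which cover counting error only. Oocyte-only regions are the lowest class for ESC (14.1%) and for 8-cell TBE (34.4%), and regions reopened by the 4-cell stage the highest (87.3% and 98.2%).

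The 5 oocyte-only regions of highest GV oocyte fold enrichment among those in ESC showed how far such sites could differ. At chr1:84548356-84548680 ESC replicates 1, 2 and 3 had fold enrichments of 7.62, 9.61 and 7.91, above or close to the GV oocyte values of 5.12, 5.79 and 7.79, and among the embryo libraries only morula replicate 2 had a peak, of 3.28. The site thus had peaks in oocytes and in stem cells and almost none between. At chrX:2024033-2024454 GV oocytes had 6.58, 7.03 and 6.14 and ESC 3.63, 4.09 and 4.58. The ESC values were lower without overlap, but fold enrichment depends on depth, which differed between the libraries. The other regions, chr5:10351565-10351840, chr6:109959512-109959789 and chr3:9775736-9776090, each had peaks in 2 ESC libraries, replicates 2 and 3, of 4.03 to 6.61.

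Overlap with ESC and with 8-cell TBE was partly shared. Of the members in 8-cell TBE, 18.3% (462) were also in ESC, and of those in ESC 44.6% were also in 8-cell TBE. With TBE regions from replicates 1 and 3 alone these shares were 23.8% and 15.9%. Among members not in 8-cell TBE, 11.9% were in ESC. Reopened regions gave 79.0% and 38.7% for the same shares. Neither group had a region at 4245 members (57.8%), and 2059 were in 8-cell TBE only. These are descriptions over regions, which share libraries and are not replicates.

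Oocyte-only regions were not spread evenly over the genome. Chromosome 7 had the lowest share, with 158 of 1341 GV oocyte regions oocyte-only (11.8%), and chromosome 20 the highest, with 243 of 753 (32.3%), followed by chromosome 24 with 296 of 952 (31.1%). With regions defined from each pair of GV oocyte replicates in turn, chromosome 7 was the lowest of 30 chromosomes all 3 times (7.63% to 8.61%) and chromosome 24 the highest all 3 times (25.1% to 26.8%), while chromosome 20 ranked 27, 28 and 29 from the lowest. The pairs share libraries, so this is a description of stability. On the X chromosome 18.8% of GV oocyte regions were oocyte-only. Chromosomes 18, 19 and 25 gave 16.3%, 21% and 19.2%, and chromosomes 6, 9 and 12 gave 20.6%, 23.9% and 27.5%. Unplaced scaffolds gave 15.1% (99 of 656), and 56.6% of these 99 overlapped an 8-cell TBE region, above the share on any chromosome (25.2% to 48.5%), or 21.2% with TBE replicates 1 and 3 alone.

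The share was higher toward the far ends of the autosomes. Cattle autosomes carry the centromere at the end where the numbering of positions starts, so the other end is the telomeric one, taken here as the end of the last peak of any library. In the last 5 Mb, 1316 of 4127 GV oocyte regions (31.9%) were oocyte-only, against 20.7% away from both ends and 22.8% in the first 5 Mb. The last 5 Mb were above the middle on 26 of 29 autosomes and the first 5 Mb on 12 of 29. In steps of 5 Mb from the end the share went from 31.9% to 24.8%, 22.8%, 22.0% and 20.6%, and stayed between 18.4% and 19.9% from 25 to 40 Mb. The last 5 Mb held 18.6% of the autosomal oocyte-only regions and 11.4% of the reopened ones. Some stretches near the ends were oocyte-only for the most part. On chromosome 20, 21 of 26 GV oocyte regions in chr20:69000001-70000000 were members (80.8%), 16 of them in 8-cell TBE, and in chr5:118000001-119000000 it was 20 of 28. On chromosome 21 the dense stretch lay at the centromeric end, with 22 of 34 in the first 1 Mb.

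Members near the chromosome ends were also more often open in blocked 8-cell embryos. In 8-cell TBE replicates 1, 2 and 3, 50.2%, 73.5% and 19.3% of members in the last 5 Mb were covered, against 28.6%, 60.0% and 10.2% of members away from both ends. The difference was 14.7 percentage points ± 6.37 (SD, n = 3) and positive in 3 of 3 libraries (exact sign-flip test, p = 0.25, the smallest possible). For reopened regions it was 2.79 percentage points ± 1.37 in the same libraries. ESC went the other way, with 3.27%, 20.2% and 14.7% at the ends and 5.77%, 24.5% and 18.6% elsewhere (difference -3.57 percentage points, exact sign-flip test, p = 0.25), and in the same libraries the difference for reopened regions was -16.7 percentage points. In 8-cell controls the differences were -0.551 percentage points for oocyte-only and -10.1 for reopened regions. In 4-cell TBE they were 0.673 and -3.71. A higher difference in oocyte-only than in reopened regions was thus not particular to 8-cell TBE.

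**Figure D5:**
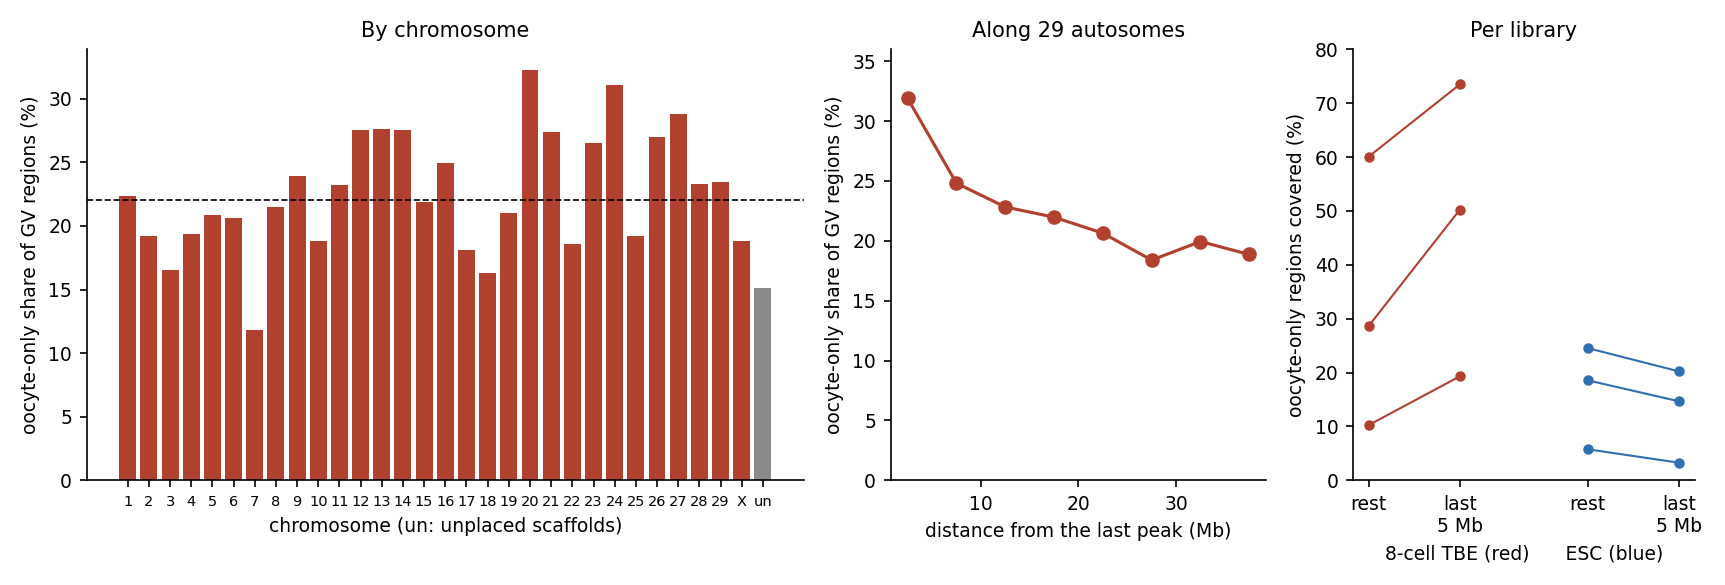
Left, percent of GV oocyte regions that were oocyte-only on each chromosome, with a dashed line at the genome-wide 22.0%. Middle, the same share on 29 autosomes in steps of 5 Mb from the last peak of the chromosome, falling from 31.9% to 24.8% in the next step. Right, percent of oocyte-only regions covered in each 8-cell TBE (red) and ESC (blue) library in the last 5 Mb of autosomes and away from both ends, with lines joining values of a library.

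Oocyte-only regions tended to lie next to each other. Where 2 GV oocyte regions had their centres within 20 kb, the second was oocyte-only in 32.7% of 2659 cases if the first was, and in 19.5% of 9196 cases if the first was reopened. Members were found in 1928 of the 2776 windows of 1 Mb that held a GV oocyte region. The widest members were chr1:156107988-156110942 (2955 bp), chr9:95623679-95626619 (2941 bp) and chr13:79305407-79308188 (2782 bp). Their width went with modest enrichment, 3.16 to 4.95 in the GV oocyte libraries with a peak, and the first of them, near the end of chromosome 1, also had ESC peaks of 4.02 and 5.34 in replicates 2 and 3. The genes, promoters and motifs at any of these regions were not analysed here.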

How the data were processed

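ATAC-seq peak lists of 30 libraries were used as deposited, 1 list per replicate. Per the labels and methods, the authors trimmed reads with Trim Galore, mapped them with BWA 0.7.17 (build ARS-UCD1.2), discarded PCR duplicates, mitochondrial reads and poorly mapped reads, and made broad peaks with MACS2 2.1.1 (q value 0.05). The fold enrichment ratio of each peak over local background and its −log10 p and −log10 q, all means over the peak, were computed by the authors. Their pooled and subsampled peak sets were not used here.

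Intervals were handled in Python 3.11.15 with numpy 2.4.6, pandas 2.3.3 and scipy 1.17.1, and functions were tested on simulated intervals (0 mismatches in 200 trials). A background level was worked out from peaks whose pileup was a whole number (tolerance 0.0001 on −log10 p, at least 3 peaks, levels that are multiples of 0.02 left out as local ones). On simulated lists 4 of 4 levels were recovered. Oocyte and embryo replicates came from separate collections and ESC replicates from cultured lines. Tests were exact and two-sided over libraries. Named regions were the 10 of highest mean GV oocyte fold enrichment with peaks in 3 GV oocyte libraries and no other, the 5 highest in ESC, the 5 highest with peaks in at least 2 8-cell TBE libraries and the 3 widest. The members, these rules and the tests were chosen with earlier results of these data known. Gene lists, genic classes, base composition, motifs and cell type markers, which had been planned, were not run, since they need sequence or annotation of ARS-UCD1.2, which was not used here. Alternatives were stricter −log10 q or fold enrichment, autosomes only, lists of equal length, an overlap of at least 50%, regions from any or all 3 replicates, bins of fold enrichment, a replicate block and leaving out replicates.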

Additional observations from a re-analysis of the deposited data

Results flagged for a closer look

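The difference between TBE and held-out control libraries in the percent of oocyte-only regions covered differed between stages before adjustment for the number of comparisons. It was 28.2 percentage points in 8-cell and -4.32 in 4-cell embryos, 32.5 percentage points apart, by a permutation of control and TBE within each stage (p = 0.04), a difference that did not hold after adjustment over 3 pairs of stages (adjusted p = 0.12). Every 8-cell TBE library was above every 8-cell control, for regions whose choice had used the other control lists, while 4-cell groups overlapped, with lists of 14355 to 42012 peaks in controls and 3094 to 32260 in TBE.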

How the results depend on the processing

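Which regions counted as oocyte-only depended on the lists more than any other result. Their number was 7339 and became 1836 with a −log10 q of at least 3, 21965 with peaks of any replicate, 3116 with peaks of all 3 replicates and 203 with the 1002 top peaks of every list. It was 4528 to 4959 when a replicate was left out of all stages, lowest without replicate 2. The share overlapping an ESC region was 14.1% and became 13.0%, 16.2%, 9.47% and 9.36% under the same settings in turn, 12.0% with an overlap of at least 50%, and 7.33% to 16.4% without a replicate, lowest without replicate 2. The difference from reopened regions kept its sign under all 8 alternatives in ESC (-56.2 to -38.8 percentage points), in 12 libraries (-35.5 to -2.93, the latter with 925 top peaks) and in held-out GV oocyte libraries (-37.4 to -22.6), and without any library (-55.3 to -49.9, -35.4 to -30.5 and -32.9 to -27.9). The 8-cell difference between TBE and control ranged from 7.74 (fold enrichment of at least 3) to 32.0 percentage points over 10 alternatives, 2 of them added after the data had been seen, and from 14.8 to 40.3 without a library, and against morula-born regions from 9.67 to 36.8 and from 25.5 to 37.5. At the 4-cell stage the difference was -6.78 (without TBE replicate 1) to -0.739 (without control replicate 1) and at the 2-cell stage 0.238 (without TBE replicate 3) to 1.09 percentage points (without TBE replicate 1). Lists of equal length reversed both, to 0.194 (4-cell) and -0.0333 (2-cell). Replicate numbers are not said to pair TBE with control libraries, and deviations of same-numbered libraries correlated above 0.1 in 4 of 9 pairs, and not every library correlated best with its own number. With a replicate block the differences were 0.586, -4.32 and 28.2 percentage points at the 2-, 4- and 8-cell stages (exact sign-flip test, p = 0.25 for each, the smallest that 3 pairs allow), and 31.0 against morula-born regions. Depth limits all absences here, since a site without a peak in a shallow library may be open there.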
